A study of Mus musculus with 14 samples.

Results

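The genes described here are interferon-induced GTPases, large GTP-binding proteins that cells make in quantity once interferon has reached them. The set was named by family: the immunity-related GTPases Tgtp1, Ifi47, Irgm1, Igtp and Iigp1, the guanylate-binding proteins Gbp2, Gbp3 and Gbp4, and the Mx proteins Mx1 and Mx2. Of these 10 genes, 9 had a probe on the array, 1 probe each, among 13661 genes that the probe table names. Iigp1 had none and was not analysed here.

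Interferons signal through cell-surface receptors and Janus kinases to STAT and IRF transcription factors, which switch on a large set of target genes. Type I interferons act mainly through the interferon-stimulated response element (ISRE), and interferon-gamma acts mainly through the gamma-activated site (GAS). In mice, the immunity-related GTPases and guanylate-binding proteins gather on the membranes of vacuoles that hold intracellular parasites and bacteria, and Mx proteins block the replication of RNA viruses. Astrocytes, the gap-junction-coupled glial cells that support neurons, respond to both types of interferon in culture.

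The series measured RNA of cortical astrocytes cultured from newborn mice in 3 groups: 4 samples from Cx43 null mice, 4 samples of wild-type cultures transfected with an siRNA construct against Cx43, and 6 wild-type samples without a treatment in their labels. Cx43, or connexin43, is the gap junction protein encoded by Gja1. The sources used here do not give the strain, the null allele or the siRNA sequence, and the treatment protocol speaks of whole brain tissue where the titles say cortical. The design text gives 36 h of siRNA treatment, and the protocol collected protein at 48 h after transfection. The labels name no cultures transfected with a control construct, so the effect of transfection and the effect of lowering Cx43 cannot be told apart. No label ties a sample to a culture or animal, so a p-value here reflects the scatter of these samples alone, and that scatter may be technical.

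Values are log2 signals with the median of each sample at 0, and a value of one probe says nothing about the level of another. Wild-type replicates 1, 2 and 5 stood apart from the rest: their correlation across probes with the average of the others was r = 0.37, 0.38 and -0.0201, against 0.894 to 0.948 for the remaining 11 samples. The results below therefore rest on those 11 samples, with 3 wild-type samples (replicates 3, 4 and 6), and the counts with all 14 samples are given beside them. Each of the 11 samples had values for 17849 to 26826 of 33600 probes, 53.1% to 79.8%. Null and siRNA replicates 1 and 2 differed from replicates 3 and 4 over many probes, so the linear model (limma) had a term for replicates 1 and 2 against replicates 3 and above, beside a term for the dye. All 3 wild-type samples belong to replicates 3 and above, so that term was set by the null and siRNA samples alone. Gbp4 and Mx1 had no value in null replicates 1 and 2, so for them it was set by the siRNA samples alone. Their fitted changes therefore equal the differences within replicates 3 and above. The targeted gene Gja1 read -1.17, -1.06, 2.82 and 3.03 in null samples, 1.93, 2.14, 5.47 and 5.70 in siRNA samples and 6.08, 7.53 and 4.82 in wild-type samples. It was lower in null than in wild-type samples by a log2 change of -3.31 ± 0.58 (SE, limma adjusted p = 0.0473), while siRNA minus wild type was -0.41 ± 0.58 (adjusted p = 0.734, 95% interval -1.68 to 0.85). The call in null samples was not stable: it was lost with consecutive samples as a random block (adjusted p = 0.28), and leaving out wild-type replicate 3 or 4, any null replicate or siRNA replicate 1, 3 or 4 gave adjusted p of 0.0565 to 0.232. Without the term for replicates 1 and 2, siRNA minus wild type for Gja1 was -2.31 (adjusted p = 0.587). The array thus did not resolve a knockdown of the Gja1 transcript in the samples labelled siRNA. It is not known here whether the probe reads the deleted stretch.

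Promoter sequence was at hand for 6 of the 9 genes, as windows of 300 bases (250 before and 50 after the annotated start) from RefSeq on GRCm38.p6. The core letters of the ISRE, searched as GAAA, any 2 bases and GAAA on either strand, stood in 5 of the 6 genes and in 3.44% of all 32851 promoters of that length. The GAS letters, TTCNNNGAA, which read the same on both strands, stood in 2 of the 6 and in 8.3% of all promoters, and both motifs together in 0.454%. The stretches below are shown because they carry these letters. Capitals mark the motif letters, and each stretch is written on the strand of its gene.
Tgtp1: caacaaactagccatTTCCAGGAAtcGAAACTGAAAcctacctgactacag
Igtp: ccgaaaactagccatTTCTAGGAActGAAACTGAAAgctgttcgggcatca
Irgm1: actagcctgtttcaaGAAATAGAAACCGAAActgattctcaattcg
Gbp2: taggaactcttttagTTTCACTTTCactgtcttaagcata
Gbp3: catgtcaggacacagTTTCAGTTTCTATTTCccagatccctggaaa

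The Tgtp1 stretch lies at chr11:48992299-48992349 on the minus strand, with its GAS letters starting 88 bases and its ISRE letters 77 bases before the start. The Igtp stretch, at chr11:58199496-58199546 on the plus strand, holds the same pair in the same order, 45 and 34 bases before the start. Irgm1 (chr11:48871420-48871465, minus strand) has 2 overlapping ISRE matches that start 30 and 24 bases before the start. In Gbp2 (chr3:142620589-142620628, plus strand) and Gbp3 (chr3:142559984-142560029, plus strand) the ISRE letters appear as the reverse complement, 59 bases before the start in Gbp2 and, as 2 overlapping matches, 45 and 39 bases before it in Gbp3. The window of Ifi47 and that of the other Gbp3 start in the table hold neither set of letters. A match of letters is a description of the sequence and not evidence that a factor binds there.

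The siRNA samples carried far more of these transcripts than the wild-type samples. All 9 genes rose, by 9.35-fold to 43.1-fold in the fit, and in each of them every siRNA value lay above every wild-type value. Of all 18507 tested probes, 7.11% were called at an adjusted p under 0.05, 5.07% higher and 2.04% lower in siRNA samples, and 4.5% of all probes had every siRNA value above every wild-type value. The median log2 change was 4.81 over the 9 genes and 0.13 over all probes. All 9 genes had the 2 values per group that the test required, and values from which every term of the model could be estimated.

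**Figure D1:**
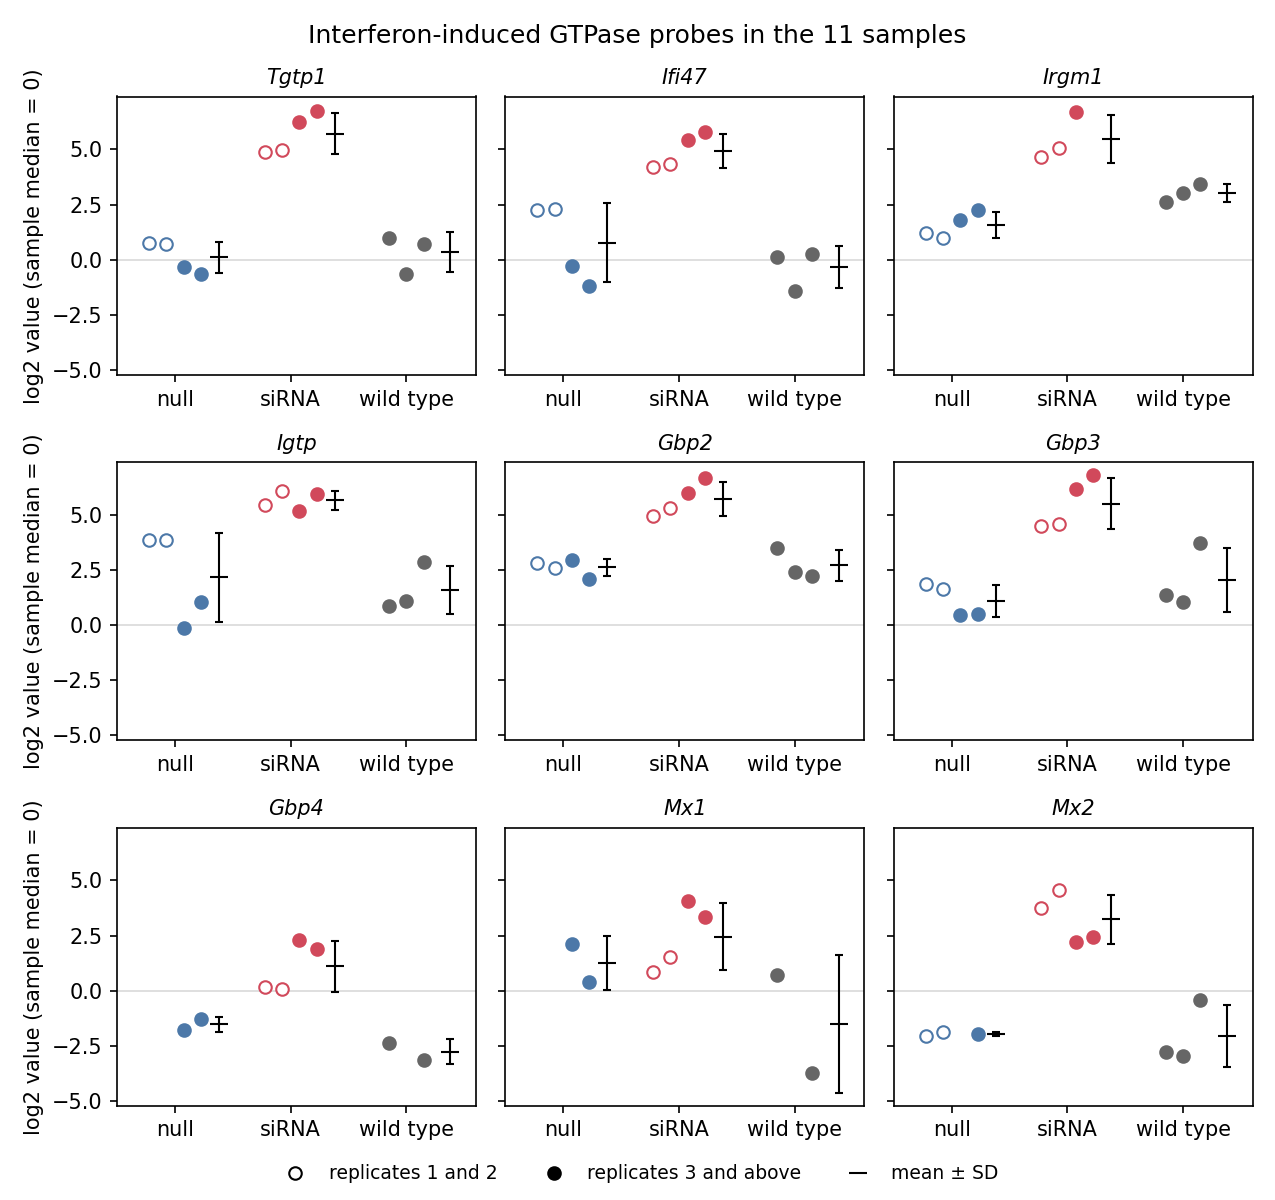
Log2 values of the 9 GTPase probes (vertical axis, median of each sample at 0) in null, siRNA and wild-type samples. Open circles are replicates 1 and 2, filled circles replicates 3 and above, and the bar beside each group is its mean ± SD. The siRNA samples sit above all wild-type samples in every panel and above all null samples in every panel but that of Mx1.

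Among the immunity-related GTPases, Tgtp1 and Ifi47 belong to the effector branch, whose mouse proteins coat and disrupt the vacuoles of parasites. Tgtp1 read 4.87, 4.97, 6.26 and 6.76 in siRNA replicates 1 to 4 and 0.99, -0.66 and 0.72 in wild-type replicates 3, 4 and 6. The lowest siRNA sample stood 3.88 above the highest wild-type sample. The fitted rise was 5.43 ± 0.67 (SE, log2), or 43.1-fold with a 95% interval of 15.7-fold to 118-fold (limma adjusted p = 0.00147). A near-identical copy, Tgtp2, lies close to Tgtp1 on chromosome 11 in the reference, and this probe may read both, so the value is uncertain as to which copy it reports. Ifi47, which follows Tgtp2 on chromosome 11, read 4.22, 4.35, 5.41 and 5.79 in siRNA samples and 0.14, -1.41 and 0.28 in wild-type samples. Its groups were separated by 3.94, and the rise was 4.81 ± 0.90 (28-fold, adjusted p = 0.0107).

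Irgm1 and Igtp belong to the regulatory branch, which in mice sits on the cell's own membranes and keeps the effector proteins from acting there. Irgm1 read 4.65, 5.05 and 6.71 in siRNA replicates 1 to 3, with replicate 4 missing, and 2.64, 3.02 and 3.45 in wild-type samples. The gap between the groups was 1.19, and the rise was 3.42 ± 0.49 (10.7-fold, adjusted p = 0.00407). Igtp was evenly high in siRNA samples, at 5.44, 6.08, 5.18 and 5.97, against 0.86, 1.10 and 2.86 in wild-type samples. Wild-type replicate 6 was the highest of its group and still 2.31 below the lowest siRNA sample. The rise of Igtp was 3.29 ± 0.74 (9.76-fold, adjusted p = 0.0231).

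The guanylate-binding proteins are recruited to pathogen membranes, and in mice Gbp2 takes part in the control of Toxoplasma. Gbp2 read 4.93, 5.31, 6.0 and 6.69 in siRNA samples and 3.52, 2.43 and 2.21 in wild-type samples. The groups were 1.41 apart, and the rise, 3.23 ± 0.50 (9.35-fold, adjusted p = 0.00464), was the smallest of the 9. Gbp3, which lies in the same cluster of Gbp genes on chromosome 3, read 4.49, 4.59, 6.17 and 6.83 in siRNA samples and 1.36, 1.07 and 3.73 in wild-type samples. Here wild-type replicate 6 came within 0.76 of the lowest siRNA sample, and the rise was 3.70 ± 0.82 (13-fold, adjusted p = 0.0216). Gbp4 belongs to another cluster of the family, on chromosome 5. Its values were 0.15, 0.07, 2.29 and 1.91 in siRNA samples and -2.37 and -3.14 in wild-type replicates 3 and 6, with wild-type replicate 4 missing. All siRNA values were at least 2.44 above the wild-type values, and the rise was 4.86 ± 0.50 (29.0-fold, adjusted p = 0.00175). That rise is the difference within replicates 3 and above, of 2 siRNA and 2 wild-type samples. Its group means differed 14.6-fold.

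Mx1 and Mx2, dynamin-like GTPases that in mice act in the nucleus and in the cytoplasm, are neighbours on chromosome 16 with 1 gene between them. RefSeq lists both as transcribed pseudogenes in the reference strain, since many laboratory mice carry defective copies. Mx1 read 0.85, 1.53, 4.08 and 3.35 in siRNA samples and 0.71 and -3.73 in wild-type replicates 3 and 6, with replicate 4 missing. Its wild-type samples differed from each other more than those of any other gene of the set, and the lowest siRNA sample was only 0.14 above the highest wild-type sample. The rise was 5.23 ± 1.00 (37.5-fold, 95% interval 7.85-fold to 179-fold, adjusted p = 0.0188). It too is the difference within replicates 3 and above, of 2 siRNA and 2 wild-type samples. The group means of Mx1 differed 15.6-fold. Mx2 read 3.77, 4.55, 2.20 and 2.45 in siRNA samples and -2.78, -2.96 and -0.43 in wild-type samples. It was separated by 2.64, rose by 4.81 ± 0.65 (28-fold, adjusted p = 0.00321) and was higher in siRNA replicates 1 and 2 than in replicates 3 and 4, the reverse of the order in 7 of the other 8 genes.

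Tgtp1 and Mx2 passed in each alternative setting that was fitted, and each of the other 7 genes missed in at least 1. Treating consecutive samples, which may share an array, as a random block left 6 of the 9 genes called, without Gbp3 (adjusted p = 0.0786), Igtp (0.0801) and Mx1 (0.0753). Without the term for replicates 1 and 2 it was 3 of 9, and with all 14 samples as deposited 4 of 9. That term, which no wild-type sample informs, also moved the size of the change: without it the log2 change was 2.45 for Irgm1, 3.86 for Gbp4 and 3.97 for Mx1, all smaller, and 4.19 for Igtp and 5.40 for Mx2, both larger. Leaving out siRNA replicate 3 left 4 called (Irgm1, Ifi47, Igtp, Gbp3 and Mx1 at adjusted p of 0.053 to 0.106), and leaving out siRNA replicate 4 left 5 (Ifi47, Igtp, Gbp3 and Mx1 at 0.0874 to 0.162). Gbp3 and Igtp also did not pass without wild-type replicate 3 (0.0789 and 0.0748) or replicate 4 (0.0805 and 0.084). The changes were positive in all of these fits.

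No rise of this kind was seen in the null samples. Null minus wild type passed for 0 of the 9 genes, where 67 of 18507 probes (0.362%) passed in either direction, 0.276% higher and 0.0865% lower. With the realigned wild-type replicates 1 and 2 described below added to the fit, 0 probes passed in this comparison (limma, 3158 at an unadjusted p under 0.05). At an unadjusted p under 0.05 in limma, 2 of the 9 differed, Gbp4 and Mx1. The median log2 change was -0.17 over the 9 genes and 0.23 over all probes.

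Tgtp1 read 0.75, 0.69, -0.34 and -0.63 in null replicates 1 to 4, within the range of the wild-type values above, and its change was -0.17 (95% interval -1.62 to 1.28). Ifi47 read 2.24 and 2.32 in null replicates 1 and 2 but -0.28 and -1.21 in replicates 3 and 4, so only the last 2 overlapped with wild type. Its change was 0.63 (-1.32 to 2.59). All 3 wild-type samples are of replicates 3 and above, and within those replicates the difference of means for Ifi47 was -0.41. Igtp was split in the same way, at 3.88 in both of null replicates 1 and 2 and at -0.13 and 1.06 in replicates 3 and 4. Its change was -0.21 (-1.82 to 1.41), and its difference of means within replicates 3 and above was -1.14.

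Irgm1 was the one gene whose null values all lay below wild type, at 1.19, 0.97, 1.81 and 2.26, a position that 4.41% of all probes shared. Its change of -0.76 (95% interval -1.68 to 0.16) did not pass (limma adjusted p = 0.411). Gbp4 was the one gene whose null values all lay above wild type, at -1.78 and -1.27 in replicates 3 and 4, the only null samples with a value, a position that 5.56% of all probes shared. Its change of 1.23 (0.11 to 2.36) had an adjusted p of 0.269.

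Gbp2 read 2.81, 2.61, 2.98 and 2.09 in null samples, of which replicate 4 lay just below the wild-type range, with a change of 0.11 (95% interval -0.99 to 1.21). Gbp3 read 1.86, 1.62, 0.47 and 0.50, with a change of -0.70 (-2.49 to 1.09). Mx2 read -2.07, -1.89 and -1.94, the tightest group of the set with replicate 3 missing, and its change was -0.73 (-2.35 to 0.88). Mx1 read 2.13 and 0.39 in null replicates 3 and 4, with replicates 1 and 2 missing, and its change of 2.77 (0.51 to 5.03) had an adjusted p of 0.218. The intervals of Gbp4 and Mx1 lay above 0 before adjustment and the other 7 included 0, and a p above the threshold does not show that the groups were alike.

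**Figure D2:**
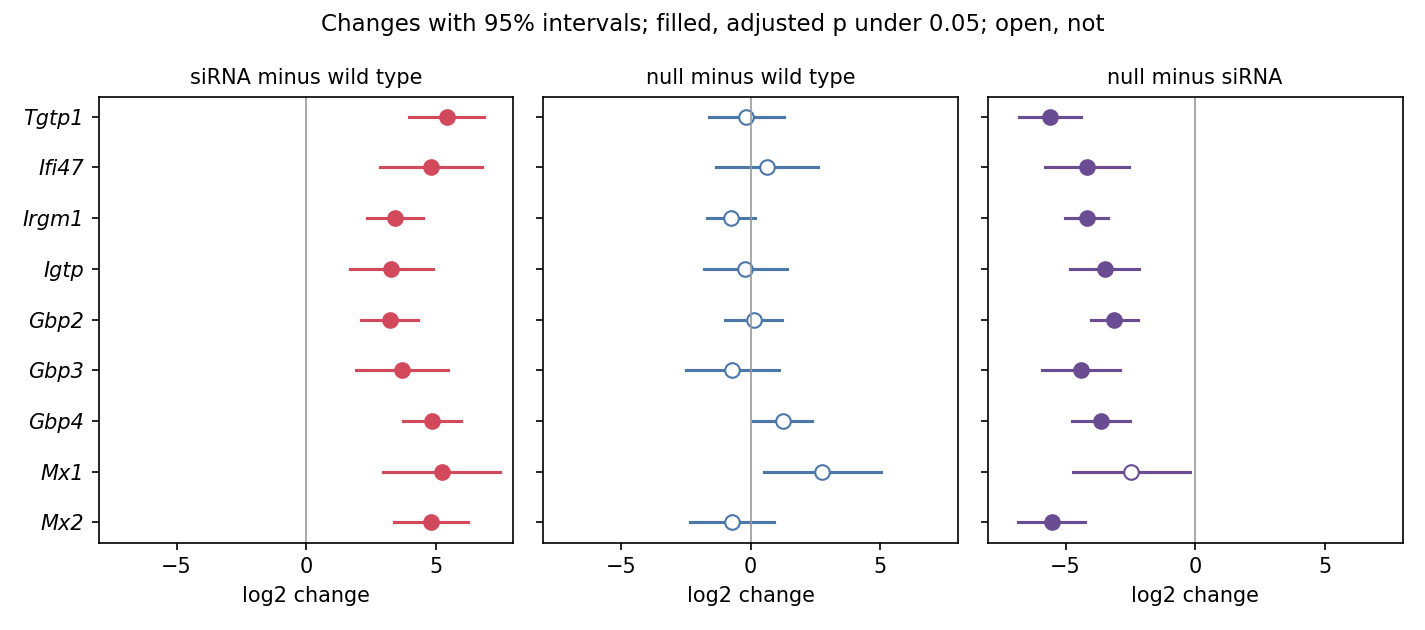
Log2 changes (horizontal axes) of the 9 GTPase genes in siRNA minus wild type, null minus wild type and null minus siRNA. Points are limma estimates, lines their 95% intervals, and filled points have an adjusted p under 0.05. Filled points stand for 9 genes in siRNA minus wild type, 0 in null minus wild type and 8 in null minus siRNA.

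Set directly against each other, null samples had less of 8 of the 9 transcripts than siRNA samples. Of all probes 6.04% were called, 3.68% higher and 2.36% lower in null samples, and 3.45% of all probes had every null value below every siRNA value, as these 8 genes did. The exception in both counts was Mx1. This comparison shares the siRNA samples with that against wild type and the null samples with the other, so it is no independent repeat of either.

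The difference was widest for Tgtp1, at -5.60 ± 0.55 (SE, log2; siRNA 48.4-fold above null, limma adjusted p = 0.000435), and for Mx2, at -5.54 ± 0.59 (46.6-fold, adjusted p = 0.000837). Gbp3 differed by -4.41 ± 0.68, Irgm1 by -4.18 ± 0.38 and Ifi47 by -4.17 ± 0.75. Gbp4 differed by -3.63 ± 0.50, Igtp by -3.49 ± 0.62 and Gbp2 by -3.11 ± 0.42, and these 6 had adjusted p from 0.000435 (Irgm1) to 0.00987 (Ifi47). Mx1, measured in 2 null samples, differed by -2.46 ± 1.00 (adjusted p = 0.172). With the replicate number as a block Mx1 passed as well (adjusted p = 0.0183), and with consecutive samples as a random block Gbp4 did not (adjusted p = 0.0515). Gbp4 also did not pass without siRNA replicate 3 (0.0502). Without the term for replicates 1 and 2 the count was 5 of 9, and with all 14 samples as deposited 2 of 9.

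The gap between null and siRNA samples differed in size between the replicates. Within replicates 1 and 2 the difference ran from -6.14 (Mx2) to -1.88 (Igtp), with a median of -2.80 over the 7 genes measured there. Within replicates 3 and 4 it ran from -6.99 (Tgtp1) to -2.46 (Mx1), with a median of -4.68 over 9 genes. An interaction fit over the 8 null and siRNA samples, chosen after the data were seen, found the gap wider in replicates 3 and 4 for 4 of 7 genes, where 18.1% of 16658 probes had an interaction in either direction. Each group holds 1 pair of consecutive samples on either side of this comparison, so its p-values rest on the scatter within such pairs, and they are too small if the samples of a pair share an array. A random block for the pairs would leave no replicate for this fit.

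In Ifi47 null minus siRNA was -6.34 in replicates 3 and 4 and -2.01 in replicates 1 and 2, a difference of -4.34 ± 0.51 (SE, limma adjusted p = 0.00459). Both groups differed between replicates: the mean of replicates 3 and 4 less that of replicates 1 and 2 was -3.02 in null and 1.31 in siRNA samples. In Igtp the same quantity was -3.41 in null and -0.18 in siRNA samples, and the interaction was -3.23 ± 0.47 (adjusted p = 0.00846). Gbp3 and Tgtp1 had interactions of -3.21 (adjusted p = 0.00621) and -2.79 (adjusted p = 0.00838). Irgm1 at -1.02, Gbp2 at -1.40 and Mx2 at 1.67 did not pass, with adjusted p of 0.199, 0.129 and 0.0604. Gbp4 and Mx1 had no null value in replicates 1 and 2.

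Against wild type the same comparison needs the displaced columns of wild-type replicates 1 and 2, most of which fitted the other samples better after a shift by 1 row of the print grid and were moved accordingly. After that step the 2 samples correlated with the others at r = 0.858 and 0.875, although the place was chosen for that match, which favours likeness. Within replicates 1 and 2 the siRNA samples then lay above wild type by 1.83 (Gbp3) to 5.86 (Mx2), with a median of 2.74 over 8 genes. Within replicates 3 and above they lay above it by 3.63 (Gbp2) to 6.16 (Tgtp1), with a median of 4.45 over 9 genes. Null minus wild type ran from -1.44 (Irgm1) to 0.76 (Igtp) within replicates 1 and 2, with a median of 0.42 over 7 genes. Within replicates 3 and above it ran from -1.56 (Gbp3) to 2.77 (Mx1), with a median of -0.41 over 9 genes. There Ifi47, Mx2 and Gbp2, at -0.41, 0.12 and -0.19, had the other sign than in the fit. Ifi47 and Igtp, which were higher in null replicates 1 and 2 than in null replicates 3 and 4, also read 1.49 and 2.10 (Ifi47) and 2.61 and 3.62 (Igtp) in the realigned wild-type replicates 1 and 2. With these 2 samples added to the fit, 9 of 9 genes were called higher in siRNA than in wild-type samples and 8 of 9 lower in null than in siRNA samples. With consecutive samples as a random block in addition, these counts were 7 and 4.

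**Figure D3:**
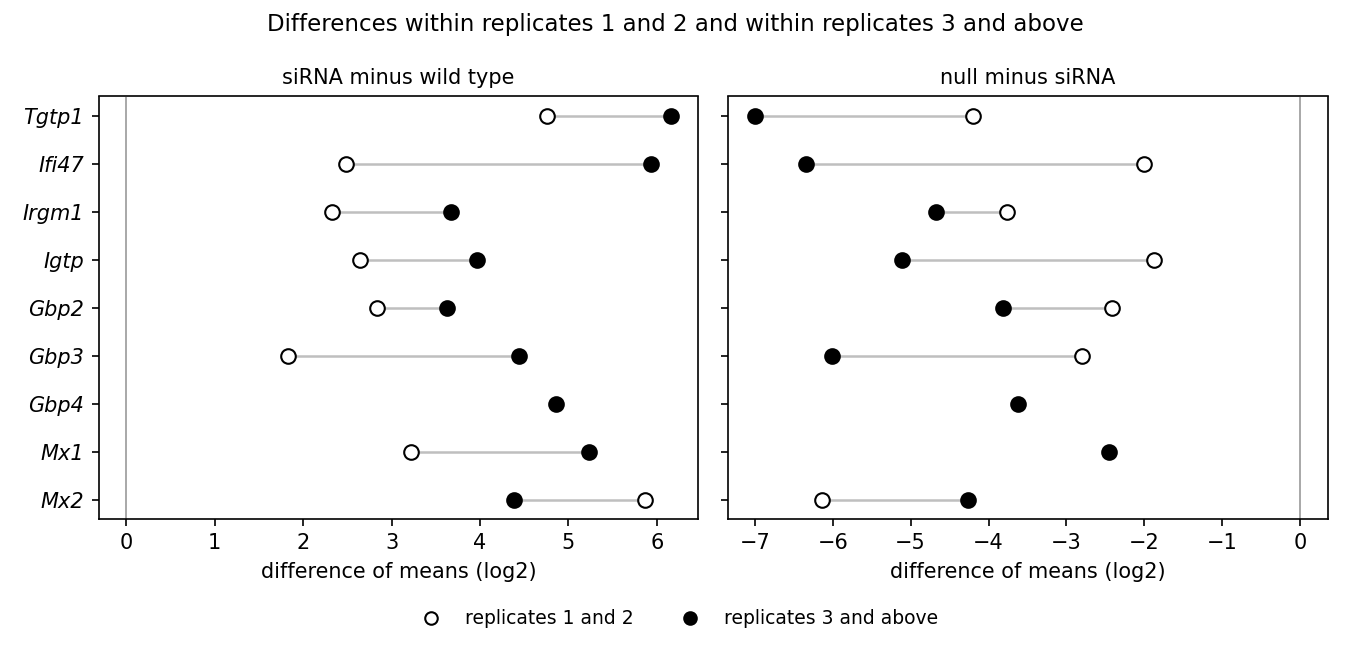
Differences of group means (log2, horizontal axes) for each GTPase gene within replicates 1 and 2 (open) and within replicates 3 and above (filled), for siRNA minus wild type and for null minus siRNA. Wild-type replicates 1 and 2 enter after realignment. Every point lies above 0 on the left and below 0 on the right, and the filled points lie farther from 0 in all genes with both points but Mx2.

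Samples with consecutive numbers in a group read alike. The absolute difference between replicates 1 and 2 had a median of 0.19 over the 16 pairs of GTPase values in null and siRNA samples, and between replicates 3 and 4 a median of 0.58. The sources used here do not say whether consecutive samples of opposite dye were hybridised to the same array. The 5 genes measured in all 11 samples (Tgtp1, Ifi47, Igtp, Gbp2 and Gbp3) followed one another at Pearson r of 0.755 (Igtp with Gbp2) to 0.971 (Tgtp1 with Gbp2). These r describe the same 11 samples in 3 groups, so they mostly restate the gap between siRNA and the other samples.

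The genes whose profile over the 11 samples was most like the mean of those 5, among 9300 named probes measured in all samples, were H2-T3 (r = 0.995), H2-Q10 (0.989), Ptx3 (0.986), Irf7 (0.983), H2-D1 (0.972) and Zbp1 (0.972). H2-T3, H2-Q10 and H2-D1 encode class I histocompatibility proteins, whose sequences are close enough that their probes may read one another's transcripts. Ptx3 is a secreted pattern-recognition protein, Irf7 a transcription factor in the feedback of type I interferon, and Zbp1 a sensor of nucleic acid in the Z form. Mean log2 values of H2-D1 were 3.78 in null, 7.04 in siRNA and 3.49 in wild-type samples, and those of Ptx3 were 0.20 in null, 4.31 in siRNA and -0.20 in wild-type samples.

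Other genes of the interferon pathway were taken from lists chosen with earlier results of these data known. Of 12 further immunity-related and guanylate-binding GTPases only 3 could be tested, and 0 passed between siRNA and wild-type samples. Gbp7 had a log2 change of 2.07 (limma adjusted p = 0.0809), Irgm2 of 2.19 (0.196) and Gbp5 of 1.54 (0.147). In null minus siRNA all 3 were lower, Gbp7 at -2.33 (adjusted p = 0.0307), Irgm2 at -2.99 (0.0493) and Gbp5 at -2.0 (0.0382), and none of these 3 calls held with consecutive samples as a random block, or when any of null replicates 3 and 4 and siRNA replicates 3 and 4 was left out. Irgm2, a regulator like Irgm1 and Igtp, is the neighbour of Igtp in the reference, and Gbp5 and Gbp7 lie beside Gbp3.

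GTPases of the dynamin family that are not known as interferon targets served for contrast. Of 6 tested, 1 rose in siRNA samples, Opa1, which fuses the inner membranes of mitochondria, by 2.46 ± 0.39 (SE, log2; limma adjusted p = 0.00472). Opa1 was also higher in null than in wild-type samples, by 2.21 (adjusted p = 0.0473), and null minus siRNA was -0.25. The call against wild type held in 20 of 24 alternative settings for siRNA and in 9 of 24 for null samples. The median change of the 6 was 0.66 in siRNA minus wild type.

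Of 6 interferons and receptors tested, 0 passed between siRNA and wild-type samples (median -0.14). The receptor subunits Ifnar1, Ifnar2 and Ifngr2 had changes of -0.11, -0.16 and -0.13, and Ifngr1 of -1.13 (adjusted p = 0.0822). The type I interferon Ifna4 was lower in null than in siRNA samples by -1.90 ± 0.33 (limma adjusted p = 0.00899), at values of -3.24 to -2.79 in null and -1.29 to -1.01 in siRNA samples. This call held in 20 of 24 alternative settings. Wild-type replicates 3, 4 and 6 read -1.28, -2.25 and -2.46 for Ifna4, so replicate 3 lay within the range of the siRNA samples. The change of Ifna4 was 0.75 in siRNA minus wild type (limma adjusted p = 0.289) and -1.15 in null minus wild type (0.181).

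Of 10 kinases, STAT and IRF factors tested, 1 rose in siRNA samples and 2 fell. Irf7 rose by 5.56 ± 0.88 (limma adjusted p = 0.00494). Irf8 and Irf5, IRF factors prominent in macrophages, fell by 2.72 and 1.70 (adjusted p = 0.0231 and 0.0371). The call of Irf7 held in 24 of 24 alternative settings, that of Irf8 in 15 and that of Irf5 in 8. Irf9 and Stat2, subunits of the complex that binds the ISRE, had changes of 2.03 (adjusted p = 0.0644) and 1.75 (0.174), and Irf1 had one of 0.79 (0.322). The median of the 10 was 0.14.

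Of 9 inhibitors of interferon signalling 1 rose, Usp18, which blocks the type I receptor, by 3.77 ± 0.71 (limma adjusted p = 0.0107), a call that held in 20 of 24 alternative settings. Socs1, which blocks the Janus kinases, had a change of 2.78 (adjusted p = 0.0519). In null samples both were lower than in siRNA samples, Usp18 by -4.02 and Socs1, measured in 2 null samples, by -4.27 (adjusted p = 0.00393 and 0.0178). Usp18 kept this call in 21 of 24 alternative settings and Socs1 in 15 of the 21 that could test it. Without siRNA replicate 3 or 4, 1 of the 2 calls was left. Without null replicate 3 or 4 Socs1 could not be tested, and 1 call was left.

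Antiviral interferon-stimulated genes rose beside the GTPases: of 30 tested, 16 were higher and 1 lower in siRNA than in wild-type samples, with a median change of 2.33. Oas1g, an oligoadenylate synthetase gene, rose by 4.73 ± 0.47, Isg15, a ubiquitin-like protein that is attached to other proteins, by 4.53 ± 0.57, and the exonuclease gene Isg20 by 4.08 ± 0.47 (limma adjusted p of 0.000441, 0.0017 and 0.00107). The gene that fell was Ifitm1 (-2.01, adjusted p = 0.0484). In null minus wild type 1 of 30 passed, Oas1g, which was higher by 3.07 ± 0.47 (adjusted p = 0.0348), and the median was 0.35. In null minus siRNA 18 were lower and 1 higher, Ifitm1 again. With consecutive samples as a random block 9 of the 30 were higher in siRNA than in wild-type samples, with all 14 samples 6, and without siRNA replicate 3, siRNA replicate 4 or wild-type replicate 4 there were 9, 8 and 10. The 18 lower in null than in siRNA samples became 7 with the random block, 1 with all 14 samples, 10 without null replicate 4 or siRNA replicate 3, and 11 without siRNA replicate 4. Isg15 passed in 24 of 24 alternative settings, Oas1g in 20 for siRNA and in 11 for null minus wild type, and Ifitm1 against wild type in 9.

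Of 19 genes induced by interferon-gamma 13 could be tested, of which 6 rose in siRNA samples and 0 fell (median 1.88). Among the genes not called, Ciita, H2-Ab1 and B2m had changes of 0.22, 0.64 and -0.70 (limma adjusted p of 0.875, 0.493 and 0.496). The others not called were Psmb8 at 2.39 (0.136), Psmb10 at 1.55 (0.204), Tap1 at 1.54 (0.136) and Psmb9 at 0.50 (0.682). Of the 13 changes 12 were positive. The chemokine genes Cxcl11 and Cxcl10, whose products attract T cells, rose by 5.44 ± 0.51 and 5.37 ± 0.40, and the checkpoint ligand gene Cd274 by 2.95 ± 0.37 (limma adjusted p of 0.00032, 0.000145 and 0.00175). Cxcl10 and Cd274 passed in 24 of 24 alternative settings and Cxcl11 in 23. In null samples 7 of the 13 were lower than in siRNA samples and 0 passed against wild type. With consecutive samples as a random block the counts were 4 higher in siRNA samples and 4 lower in null samples, and with all 14 samples 2 and 2. Without siRNA replicate 3 the count lower in null samples was 4. Of 12 autophagy genes, whose products place these GTPases on vacuoles in mice, 0 passed in any of the 3 comparisons. Their median change was 0.31 in siRNA minus wild type, and the changes ran from -1.03 to 0.69.

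**Figure D4:**
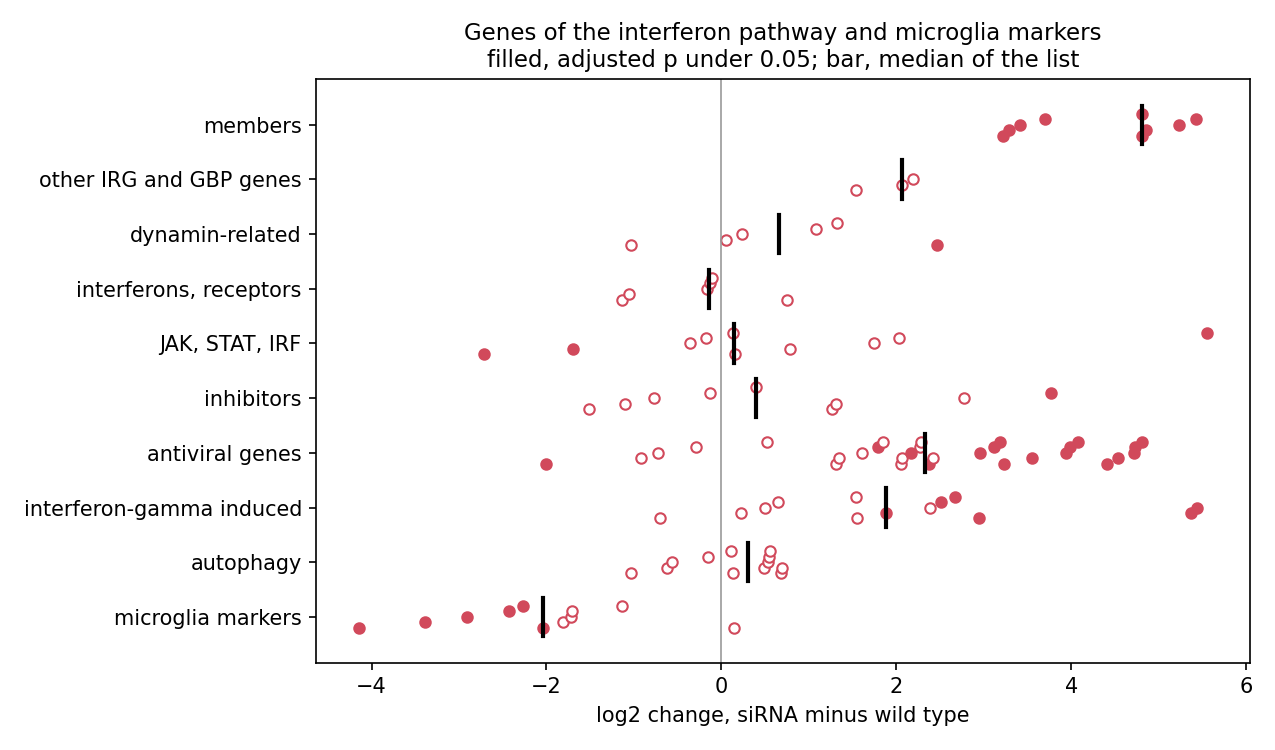
Log2 change in siRNA minus wild-type samples (horizontal axis) of the 9 GTPase genes (first line, members), of the genes of 8 other lists and of the microglia markers. Each point is a gene, filled points have an adjusted p under 0.05, and the black bar is the median of the list, 4.81 for the GTPases, 2.33 for the antiviral genes and -2.04 for the microglia markers.

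Some markers of other cell types differed between the same groups as the GTPases. Of 16 microglia and macrophage markers 11 could be tested, and 6 fell in siRNA against wild-type samples, with a median change of -2.04. That count was 2 with consecutive samples as a random block, 0 with all 14 samples, and 3 without wild-type replicate 3 or 4. Laptm5 and C1qa, a lysosomal membrane protein and a complement component of these cells, had changes of -3.38 (limma adjusted p = 0.000653) and -2.43 (0.00453). In null minus siRNA 5 of the 11 markers were higher and 0 lower, with a median change of 1.56. With 1 sample left out the count higher in null samples ran from 1 (without null replicate 4 or siRNA replicate 3) to 6 (without wild-type replicate 6). The mean log2 level of the 10 markers measured in all samples was 2.06 to 4.38 in null samples, 1.42 to 1.95 in siRNA samples and 2.77 to 3.67 in wild-type samples. In bulk RNA, fewer cells of a type and less RNA per cell cannot be told apart, and the part of these cells in the GTPase values was not tested. Of 12 astrocyte markers 8 could be tested: 1 rose in siRNA against wild-type samples (Aldh1l1, 1.82) and 1 fell (Aldoc, -2.34). These calls held in 10 and 12 of 24 alternative settings. In null minus siRNA 2 were higher, among them Aldoc (3.30, limma adjusted p = 0.00372), and 1 was lower, Gja1 (-2.90, 0.00746). Aldoc kept this call in 21 of 24 alternative settings and Gja1 in 20. The mean level of 7 astrocyte markers was 2.40 to 3.75 in null, 1.44 to 3.49 in siRNA and 3.47 to 4.25 in wild-type samples. That mean includes Gja1 itself, whose group means were 0.91 in null, 3.81 in siRNA and 6.14 in wild-type samples. Gfap, the defining filament gene of astrocytes, had no value in any of the 11 samples, and the glutamate transporter gene Slc1a3 had none in wild-type samples. Of 7 T and NK cell markers, the cells that make interferon-gamma, 1 could be tested, Cd3e, with a change of 0.44 (adjusted p = 0.632). Markers of ependyma and choroid plexus, whose cells line the ventricles, had a mean level over 3 genes of 1.87 to 3.55 in null samples, -0.48 to -0.11 in siRNA samples and 0.62 to 3.42 in wild-type samples, so the siRNA samples lay below all others. Of 5 such markers tested, 1 fell in siRNA samples, Ccdc39 (-1.89, adjusted p = 0.0113), and 2 were higher in null than in siRNA samples, Ccdc39 (2.73, adjusted p = 0.000699) and Foxj1 (1.70, 0.0213). Of 2 endothelial markers 1 fell in siRNA samples, Flt1 (-1.74, 0.0233), which was also higher in null than in siRNA samples (1.46, 0.0252), and of 3 neuronal markers 1 fell, Tubb3 (-1.34, 0.0391). Of 7 markers of the oligodendrocyte lineage 0 passed against wild type and 1, Sox10, was higher in null than in siRNA samples (1.66, 0.0117), and of 4 fibroblast and mural markers 0 passed in any comparison. Of the ependymal, endothelial, neuronal and oligodendrocyte calls that of Ccdc39 held in 20 (siRNA minus wild type) and 23 (null minus siRNA) of 24 alternative settings and the others in 8 to 17. The part of these cells in the GTPase values was not tested either.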

How the data were processed

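RNA (20 ug per sample, labelled with Cy3 or Cy5 per the labels) was hybridised to spotted mouse oligonucleotide arrays. Per probe and sample the deposited file has 1 log2 value, processed by the authors and centred on a median of 0 in each sample. The sources used here do not give the scanner, background correction, filter or normalization, so neither signal over background nor the reason for missing values is known. Precision is limited by how many arrays there are. One gene symbol is paired with 18179 of 33600 probes, several with 87 and none with 15334.

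Here 11 samples, grouped by title, were fitted with limma 3.58.1 (lmFit and eBayes, R 4.3.3). Dye and replicates 1 and 2 against 3 and above were covariates. The 18507 tested probes had at least 2 values in each group and values from which every term of the model could be estimated. Tests were two-sided, adjusted by Benjamini-Hochberg over all tested probes per comparison, and called at adjusted p under 0.05. Errors of changes are SEs. The members and lists were chosen with earlier results of these data known. All members, Gja1, up to 3 called genes per list and comparison with the smallest p, and the 6 genes most like the members were named. Further genes named beside these were chosen after their values were seen. A gene with several probes was represented by its brightest one.

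Replicate numbers were taken from the titles. Same-numbered null and siRNA samples deviated together from their group means (r = 0.618, 0.635, 0.646 and 0.564 over 14728 probes). They also share a dye, so a pairing by number and an effect of the dye cannot be told apart here. Differently numbered samples of replicates 1 and 2, or of replicates 3 and 4, reached 0.392 to 0.596, and those across these sets -0.606 to -0.486, so most of this likeness lies in replicates 1 and 2 against 3 and 4. Wild-type replicates 1 and 2 were realigned per block column: of 1344 columns 1267 were placed and 77 were left out. Of the placed columns 803 moved by 1 row to a lower row number, 29 by 1 row to a higher number and 402 not at all. The few remaining placed columns moved by more than 1 row. In simulated data the fit recovered 38% (siRNA minus wild type), 29% (null minus wild type) and 62% (null minus siRNA) of true log2 changes of 2. Of changes of 4 it recovered 91%, 93% and 98%. The simulated noise was independent between samples, so it cannot show whether the p-values hold if consecutive samples share an array. Changes were planted only in probes with a value in all 11 samples, so these rates do not cover Irgm1, Gbp4, Mx1 and Mx2, which have missing values. The simulated shift between replicates 1 and 2 and replicates 3 and above was the same in all groups, so a shift that differs between groups was not covered. Alternatives were other covariates, blocks, filters, scalings and sample sets.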

Additional observations from a re-analysis of the deposited data

Results flagged for a closer look

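In 4 of the 7 GTPase genes that could be tested the difference between null and siRNA samples was not the same in replicates 3 and 4 as in replicates 1 and 2, by the interaction of group and replicates in limma, against 18.1% of all 16658 probes tested (3015 probes). The change of null minus siRNA in replicates 3 and 4, less the same in replicates 1 and 2, was -4.34 for Ifi47, -3.23 for Igtp, -3.21 for Gbp3 and -2.79 for Tgtp1, on the log2 scale. Of the 14 groups of 4 GTPase values that could be searched for an outlying sample, 0 held one. The search compared the gap at either end with the range of the 4 values. Where replicates 1 and 2, and replicates 3 and 4, form close pairs, it can hardly flag a sample, so this count tells little. The interaction rests on the scatter within pairs of consecutive samples, which may share an array.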

How the results depend on the processing

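With 3 wild-type samples and no signal over background, small changes and dim probes cannot be resolved. In siRNA minus wild type 1315 probes were called: 66 without the term for replicates 1 and 2, 1994 with the replicate block, 212 with possible array pairs as a random block, 49 with 14 samples, 866 after realignment (114 with array pairs too, a setting chosen after seeing the data), 401 after scaling to 1 median absolute deviation, 2039 with array weights, and 225 to 1341 with 1 sample left out. The counts of GTPase genes were 9, and in the order of these settings 3, 9, 6, 4, 9, 7, 9 and 9, 5 of the 5 complete probes, and 4 to 9 with 1 sample left out. With 1 sample left out, 7 or 9 GTPase genes could be tested in each comparison. In null minus wild type 67 were called: 0 (limma; 1319 at unadjusted p under 0.05), 394, 3, 0 (1571), 0 (3158; 0 and 1365 with array pairs), 13 and 160 in that order, 35 with at least 1 value per group, 114 after quantile normalization, 421 with 2 groups, and 1 to 147 with 1 sample left out; GTPase genes were 0 in each. In null minus siRNA 1118 were called: 75, 2384, 131, 19, 646 (58 with array pairs), 710 and 2953, and 299 to 1608 with 1 sample left out, with 8 GTPase genes and 5, 9, 7, 2, 8 (4), 8 and 9, 5 of 5 complete probes, and 7 to 8. Scaling turned the split in null minus wild type from 51 higher and 16 lower to 8 and 5, and moved the median of all probes from 0.13 to 0.03 in siRNA minus wild type and from 0.09 to 0.23 in null minus siRNA. The direction of the GTPase changes turned only in null minus wild type, where none passed: without the term for replicates 1 and 2 Igtp 0.69, Mx2 0.089 and Gbp2 -0.15; with the replicate block Igtp 0.29, Gbp3 0.078, Mx2 0.066, Tgtp1 0.050 and Gbp2 -0.089; with 14 samples Igtp 0.69 and Tgtp1 0.30; with array weights Tgtp1 0.23 and Igtp 0.094; with 2 groups Ifi47 -0.50 and Gbp2 -0.32; and with 1 sample left out Tgtp1 ran from -0.64 to 0.40, Igtp from -0.59 to 0.45, Gbp3 from -1.25 to 0.078, Mx2 from -1.66 to 0.051 and Gbp2 from -0.14 to 0.61. Gja1 in siRNA minus wild type ran from -1.10 to 0.25 with 1 sample left out and was -2.31 without the term for replicates 1 and 2 and with 14 samples. The causes of these shifts were not tested. The replicate block changed no call of a GTPase gene other than that of Mx1 in null minus siRNA.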

Other observations

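Of the interferon genes themselves, Ifnb1, the type I interferon that many cells make first, had too few values to be tested, and its values were looked at after the other results were known. It read 0.89, 0.88, 0.50 and 1.11 in siRNA samples and -3.29 and -2.92 in null replicates 3 and 4, and it had no value in null replicates 1 and 2 or in wild-type replicates 3, 4 and 6. Every siRNA value lay above both null values. Ifna1 had a value in 1 siRNA sample (-4.29) and in 1 wild-type sample (-1.79).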
